A study of Mus musculus with 6 samples.

Results

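The genes described here make, recycle and break down glutathione, and they were followed in primary mouse embryonic fibroblasts exposed to erastin. They were the rows of the deposited count table whose Ensembl identifier carries one of 9 symbols in the GENCODE M21 annotation: Gclc, Gclm, Gss, Gsr, Chac1, Chac2, Ggct, Ggt5 and Oplah. All 9 were found among 43346 genes, and 8 of them passed the filter on low counts that left 14000 genes for testing; Ggt5 did not. The libraries came from C57BL/6 fibroblasts at passage 9 that had been given 3 µM erastin (n = 3) or the solvent DMSO (n = 3) for 24 h. Both groups came from a culture medium whose listed supplements include 2-mercaptoethanol, a thiol whose listed concentration could not be checked, and the dose of DMSO is not given. The series describes the experiment as done in triplicate but does not say whether replicates came from separate embryos or cultures, so p-values measure only the spread between these libraries.

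Glutathione is a tripeptide of glutamate, cysteine and glycine, and it is the main small thiol of animal cells. Glutamate-cysteine ligase joins glutamate to cysteine in the step that limits the rate of synthesis, glutathione synthetase adds glycine, and glutathione reductase returns the oxidised disulfide to the thiol with NADPH. Breakdown inside the cell runs through enzymes that release 5-oxoproline, which 5-oxoprolinase opens to glutamate, and breakdown outside the cell runs through gamma-glutamyltransferases. Erastin blocks the cystine and glutamate antiporter, through which many cultured cells obtain their cysteine. It is used to induce ferroptosis, a death by iron-dependent lipid peroxidation that glutathione peroxidase 4 opposes with glutathione as its reductant. In many cell types Gclc and Gclm are targets of the transcription factor NRF2, which binds antioxidant response elements, and Chac1 is a target of ATF4 and CHOP in the integrated stress response.

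Promoter sequences are shown for Gclm and Chac1, the 2 genes with the largest changes described further on, and for Chac2, the paralog of Chac1 that did not change detectably. Each is the 250 bases before the RefSeq start (GRCm38.p6), 5′ to 3′ on the strand of the gene, with any match to a searched motif in capitals. Gclm lies at chr3:122245307-122245556 on the + strand, Chac1 at chr2:119350992-119351241 on the + strand and Chac2 at chr11:30986366-30986615 on the - strand.
Gclm: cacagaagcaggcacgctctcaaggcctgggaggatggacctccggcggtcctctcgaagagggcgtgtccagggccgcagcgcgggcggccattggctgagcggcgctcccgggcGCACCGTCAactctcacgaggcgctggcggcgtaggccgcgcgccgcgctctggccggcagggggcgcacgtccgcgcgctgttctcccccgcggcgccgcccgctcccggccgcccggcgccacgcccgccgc
Chac1: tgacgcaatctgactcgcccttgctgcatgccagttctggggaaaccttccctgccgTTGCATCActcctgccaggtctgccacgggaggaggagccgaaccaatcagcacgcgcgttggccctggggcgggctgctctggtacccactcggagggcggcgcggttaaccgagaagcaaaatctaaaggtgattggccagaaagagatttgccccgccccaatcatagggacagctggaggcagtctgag
Chac2: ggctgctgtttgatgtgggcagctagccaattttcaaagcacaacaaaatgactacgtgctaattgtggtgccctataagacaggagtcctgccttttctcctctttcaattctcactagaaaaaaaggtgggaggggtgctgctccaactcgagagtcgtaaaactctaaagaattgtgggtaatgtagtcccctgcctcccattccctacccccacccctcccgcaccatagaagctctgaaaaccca

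In all 3 motifs were searched on both strands: TGACNNNGC, the core of the antioxidant response element; TGATGNAA, a form of the C/EBP-ATF response element; and TGANTCA, the AP-1 element. The RefSeq table held promoters for 5 of the 9 genes: Gclm, Gss, Chac1, Chac2 and Ggct. The Gclm window had 1 antioxidant response element core, on the opposite strand, 134 to 126 bases before the start, and Ggct had another 174 to 166 bases before its start; 10.2% of 32851 promoter windows of this length held that motif. The Chac1 window had 1 C/EBP-ATF match, on the opposite strand 193 to 186 bases before the start, against 3.45% of all windows. Gss and Chac2 had no match to any of the motifs, and none of the 5 windows held TGANTCA, which 6.75% of all windows did. Over the 12981 windows of tested genes the shares were 11.6% for the antioxidant response element core, 1.93% for the C/EBP-ATF element and 4.5% for AP-1. Composition differed widely, from a GC content of 78.4% for Gclm to 48.8% for Chac2, with a median of 52.4% over all windows. A match is a run of letters and does not show that a factor binds there. The RefSeq and GENCODE starts were the same base for Gclm and Gss and differed by 13 bases for Chac1, 15 for Chac2 and 83 for Ggct.

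The deposited libraries held 13333911 to 20509970 counts. They were distinct, with a chi-square per degree of freedom of 11.0 to 19.2 between replicates and 78.0 to 123 between groups. The first principal component (56.5% of the variance) separated the groups. DMSO replicate 3 stood apart on the second component (15.6%), at -50.9 against 35.5 and 24.9 for the other DMSO libraries; without it the same count of 5 glutathione genes passed as higher. Levels below are CPM, library-scaled read counts with TMM factors, unless stated otherwise. All 10 fibroblast markers were above 1 CPM in every library; their summed level was 35430 to 38500 CPM in DMSO and 25450 to 26900 CPM with erastin, with 8 of 10 lower and the other 2 not passing. Among 5 endothelial markers Kdr and Tek were higher (summed level of all 5: 5.10 to 7.71 and 14.1 to 17.4 CPM). Emcn did not pass, and Pecam1 and Cdh5 had means of at most 0.372 CPM. The summed levels of 5 epithelial markers (2.18 to 3.17 and 2.18 to 3.65 CPM) and of 5 immune markers (11.2 to 16.4 and 10.5 to 19.3 CPM) overlapped between the groups. That of 5 skeletal muscle markers (51.6 to 62.2 and 17.5 to 22.4 CPM) did not; Acta1 passed as lower, and Myod1, Myog, Myf5 and Ckm had means of at most 0.297 CPM. Of the neural markers, Tubb3 passed as lower (67.0 ± 12.7 to 40.2 ± 4.48 CPM, SD, n = 3), Map2 did not pass, and Sox2 and Sox10 had means of at most 0.365 CPM. The part of these shifts in the values of the glutathione genes was not tested, and in bulk RNA fewer cells of a type and less RNA per cell cannot be told apart.

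Erastin libraries had more RNA of both ligase subunits, of glutathione synthetase and reductase, and of 1 breakdown enzyme, Chac1. Of the 8 genes tested, 5 passed as higher (adjusted p-value under 0.05 in edgeR's quasi-likelihood test): Chac1, Gclm, Gclc, Gsr and Gss. Among all 14000 genes 43.1% passed in either direction and 21.6% as higher. The count lower was 0, also at an unadjusted p-value under 0.05 and with DESeq2. The median log2 fold change was 0.64 over the 8 genes and -0.0014 over all genes tested. A log2 fold change of at least 1 together with that threshold was reached by 3 of the 8, Chac1, Gclm and Gclc, and by 4.99% of all genes. In 5 of the 8 every erastin library was above every DMSO library, as in 26.7% of all genes. The other breakdown genes, Chac2, Ggct and Oplah, did not pass.

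**Figure D1:**
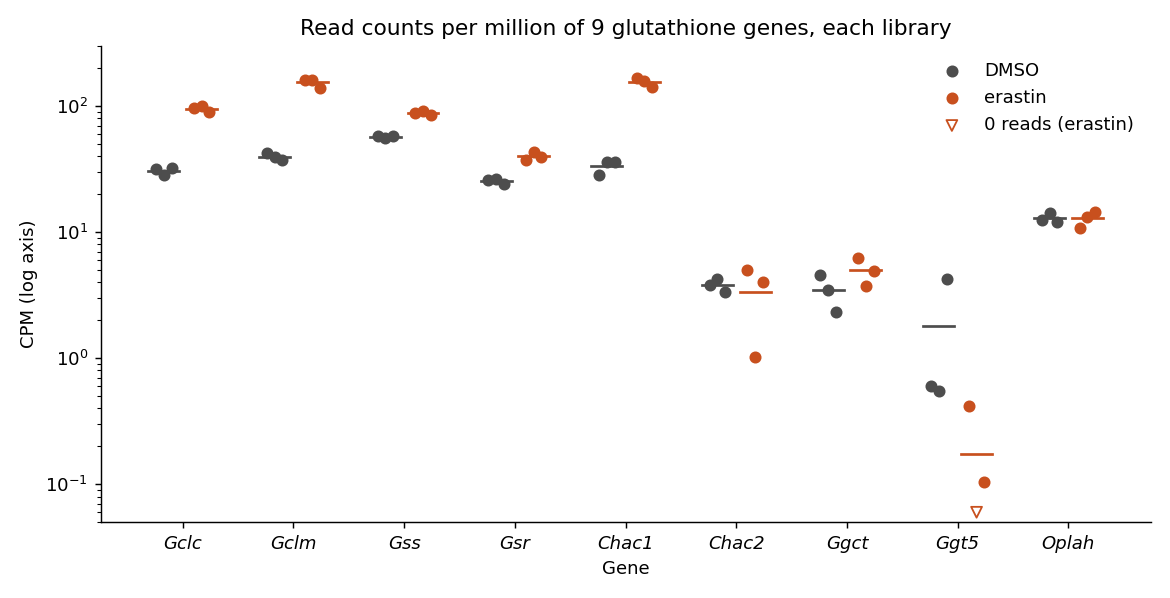
CPM (log axis) of the 9 genes in each of the 3 DMSO and 3 erastin libraries; points are libraries, short lines are group means and the open triangle marks a library with 0 reads of Ggt5. The groups lie apart for Gclc, Gclm, Gss, Gsr and Chac1, and the groups of Chac2, Ggct and Oplah overlap.

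Gclc and Gclm encode the catalytic and the modifier subunit of glutamate-cysteine ligase. Gclc (ENSMUSG00000032350.8, GRCm38 chromosome 9, 77754535 to 77794485) stood at 31.8, 28.5 and 32 CPM in DMSO and at 95.9, 100.8 and 89.5 CPM in erastin libraries. Every erastin library was well above every DMSO library, and the spread within each group was small beside the gap. The fold change was 3.10 (log2 fold change 1.63, SE 0.093, edgeR adjusted p = 7.73e-09).

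Gclm (ENSMUSG00000028124.11, chromosome 3, 122245557 to 122270732) stood at 42.3, 39.5 and 37.3 CPM in DMSO and at 162, 162 and 139 CPM with erastin. The lowest erastin library was still far above the highest DMSO library. The fold change was 3.88 (log2 fold change 1.96, SE 0.092, edgeR adjusted p = 1.31e-09). Gclm exons share 296 bases with Gm17494 on the opposite strand and 244 with the pseudogene Gm6061 on the same strand. Those genes had 3 and 23 reads in all, against 10601 of Gclm. From the largest rise downwards, Gclm ranked 179th and Gclc 290th of 14000 genes by log2 fold change.

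The fold change of the modifier subunit was the larger, although an exact permutation test of 3 against 3 libraries cannot give a p below 0.1. Within a library, the log2 ratio of Gclm to Gclc reads was 0.41, 0.47 and 0.22 in DMSO and 0.75, 0.68 and 0.63 with erastin, and this ratio does not depend on how libraries are scaled. The 3 erastin libraries lay above the 3 DMSO libraries, with means of 0.69 ± 0.062 and 0.37 ± 0.13 (SD, n = 3), a difference of 0.32. The two-sided exact permutation test gave p = 0.1 (adjusted p = 0.133 over the 4 ratios computed). The ratio is not free of effects of GC content and length. With an offset for both, the log2 fold changes lay closer together, at 1.80 for Gclm and 1.61 for Gclc, against 1.96 and 1.63.

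Gss, glutathione synthetase (ENSMUSG00000027610.13, chromosome 2, 155563181 to 155592810), rose as well. It stood at 57.6, 55.5 and 57.8 CPM in DMSO and at 88.1, 91.5 and 84.3 CPM with erastin. The groups did not overlap, and the fold change was 1.54 (log2 fold change 0.63, SE 0.084, edgeR adjusted p = 2.71e-05). Its exons share 395 bases with those of Acss2, an acetyl-CoA synthetase gene on the opposite strand. Acss2 was lower by a log2 fold change of -1.09 (edgeR adjusted p = 6.31e-05). With the strand setting not given, reads in those 6.68% of the exonic bases of Gss cannot be assigned with certainty. The same holds for the antisense genes Gssos1 and Gssos2, which share 322 and 385 bases with Gss exons and had 0 and 9 reads in all.

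The fold change of Gss was smaller than that of Gclc, with the same limit on p. For each read of Gclc there were 1.81, 1.94 and 1.80 reads of Gss in DMSO and 0.919, 0.907 and 0.942 with erastin. Gss reads outnumbered Gclc reads in every DMSO library and were fewer in every erastin library. The mean log2 ratios were 0.89 ± 0.061 and -0.12 ± 0.028 (SD, n = 3), a difference of -1.004. The exact permutation p was 0.1, the smallest possible (two-sided; adjusted p = 0.133).

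Gsr encodes glutathione reductase (ENSMUSG00000031584.12, chromosome 8, 33652523 to 33698163). It stood at 25.8, 26.6 and 24.2 CPM in DMSO and at 37.4, 43.5 and 39.7 CPM with erastin, again without overlap. The fold change was 1.57 (log2 fold change 0.65 with an SE of 0.11, edgeR adjusted p = 0.00027). The fold changes of Gsr and Gss lay close together. The log2 ratio of Gsr to Gss reads averaged -1.16 ± 0.095 in DMSO and -1.13 ± 0.091 with erastin (SD, n = 3). The groups overlapped, and the difference was 0.025 (two-sided exact permutation p = 0.8, adjusted p = 0.8), with its sign turning without DMSO replicate 3 (-0.023) or erastin replicate 2 (-0.004). With 3 libraries a group this does not show that the factors were equal. In the order of log2 fold changes Gsr ranked 2002nd and Gss 2108th of 14000 genes.

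**Figure D2:**
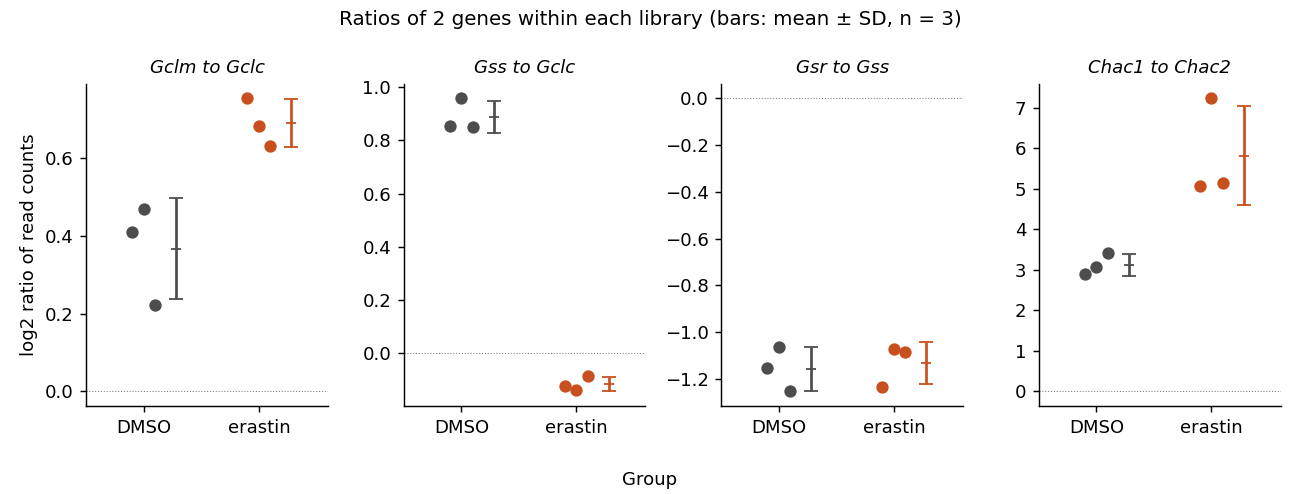
Log2 ratio of the read counts of 2 genes within each library, for 4 pairs of genes; points are libraries and bars show the mean ± SD of 3 DMSO and 3 erastin libraries, each panel with its own axis. The groups lie apart for Gclm to Gclc, Gss to Gclc and Chac1 to Chac2, and they overlap for Gsr to Gss.

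Of the 4 genes of breakdown inside the cell 1 passed, as higher, a share close to the 21.6% of all genes that did. Chac1 (ENSMUSG00000027313.3, chromosome 2, 119351229 to 119354381) encodes a gamma-glutamylcyclotransferase that cleaves glutathione to 5-oxoproline and cysteinylglycine. It stood at 28.2, 36 and 36 CPM in DMSO and at 167, 158 and 143 CPM with erastin. All 3 erastin libraries were far above all 3 DMSO libraries. The fold change of 4.67 (log2 fold change 2.22, SE 0.105, edgeR adjusted p = 1.36e-09) was the largest of the 8 genes tested and ranked 120th of 14000.

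Chac2 (ENSMUSG00000020309.6, chromosome 11, 30976707 to 30986350) encodes a paralog with the same activity, described as slower and constitutive. It had few reads: 50, 77 and 43 in DMSO and 107, 17 and 77 in erastin libraries, or 3.78, 4.27 and 3.35 against 4.98, 1.02 and 3.99 CPM. Erastin replicate 2 was low, with an exact 95% Poisson interval of 0.593 to 1.63 CPM that reaches none of the other 5 libraries, and the groups overlapped. The log2 fold change was -0.18 with a 95% interval of -1.16 to 0.79 (edgeR adjusted p = 0.78). Without erastin replicate 2 it was 0.239 (edgeR adjusted p = 0.637), so 1 library set the sign; over all alternatives the adjusted p-value ran from 0.362 to 0.92.

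The ratio of the paralogs was far higher in every erastin library. For each read of Chac2 there were 7.40, 8.38 and 10.6 reads of Chac1 in DMSO and 33.5, 150 and 35.6 with erastin. The groups did not overlap, with mean log2 ratios of 3.12 ± 0.27 and 5.82 ± 1.2 (SD, n = 3) and a difference of 2.69, which was 1.99 without erastin replicate 2. The exact permutation p was 0.1, the smallest possible (two-sided; adjusted p = 0.133). Of the printed windows, that of Chac1 holds a C/EBP-ATF match and that of Chac2 does not, as most windows do not (3.45% of all windows hold it). A link between this match and the ratio was not tested.

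Ggct encodes a gamma-glutamylcyclotransferase that acts on gamma-glutamyl amino acids rather than on glutathione itself (ENSMUSG00000002797.7, chromosome 6, 54982580 to 54992950). It had 4.53, 3.49 and 2.34 CPM in DMSO and 6.28, 3.77 and 4.93 CPM with erastin, from 30 to 135 reads a library. The groups overlapped and the log2 fold change of 0.53 (95% interval -0.19 to 1.26) did not pass (edgeR adjusted p = 0.223; 0.13 to 0.571 over the alternatives). Leaving out 1 library moved it between 0.325, without DMSO replicate 3, and 0.767, without DMSO replicate 1; it was 0.332 without erastin replicate 1. A rise as large as those of Gss and Gsr lies inside that interval, as does no change. The exact Poisson intervals of DMSO replicates 1 and 3 (3.46 to 5.84 and 1.57 to 3.33 CPM) did not overlap, so these libraries differed by more than counting error.

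Oplah encodes 5-oxoprolinase, which turns 5-oxoproline into glutamate (ENSMUSG00000022562.9, chromosome 15, 76296601 to 76328015). It stood at 12.5, 14.3 and 12.0 CPM in DMSO and at 10.8, 13.3 and 14.6 CPM with erastin, with overlapping groups. The log2 fold change was -0.005, with a 95% interval of -0.39 to 0.38 (edgeR adjusted p = 0.984), and its sign changed with the scaling. That interval lies below the log2 fold changes of Gss and Gsr, although no test compared the genes. Its exons overlap those of Exosc4 by 385 bases and of Smpd5 by 296 bases, both on the opposite strand; Exosc4, with 2612 reads in all against 1311 of Oplah, had a log2 fold change of 0.07 (edgeR adjusted p = 0.711).

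Ggt5 encodes a gamma-glutamyltransferase of the cell surface that acts on glutathione and its conjugates (ENSMUSG00000006344.12, chromosome 10, 75589340 to 75617200). It had 8, 10 and 55 reads in DMSO and 9, 0 and 2 reads in erastin libraries, or 0.605, 0.554 and 4.28 against 0.419, 0 and 0.104 CPM. Most of its DMSO reads came from DMSO replicate 3, the library that also stood apart from the rest. The CPM of the groups did not overlap, as for 52.5% of all genes tested, but the exact Poisson 95% interval of erastin replicate 1 (0.192 to 0.795 CPM) held the values of DMSO replicates 1 and 2. The filter on low counts removed it, so it has no test in the comparison. Without any filter its log2 fold change was -3.23 (SE 0.84, edgeR adjusted p = 0.000785). In that fit the edgeR adjusted p-value of Gclc was 5.95e-49, against 7.73e-09 with the filter, so p-values of these fits are not comparable. Among the 6 fits that each left out 1 library Ggt5 was tested in 4 and passed in 2, and without DMSO replicate 3 it was again removed by the filter. With 1 library left out, the filter asks for its minimum, scaled to library size, in only 2 libraries. Only DMSO libraries were high enough, so Ggt5 entered those fits through the group where it is higher. A call as lower in them is no support for a fall.

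**Figure D3:**
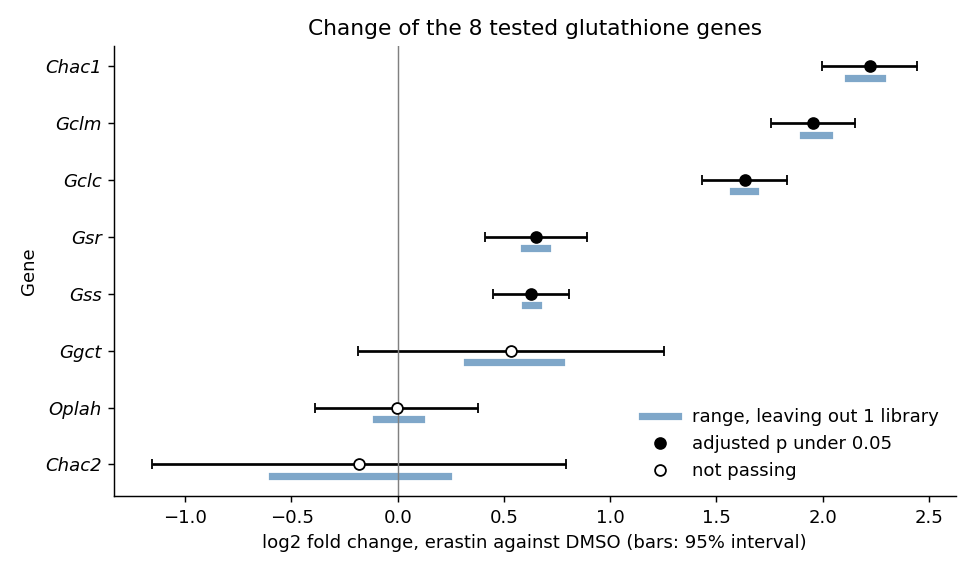
Log2 fold change of erastin against DMSO for the 8 tested genes, with 95% intervals as black bars; filled points have an adjusted p-value under 0.05 and blue bars span the 6 fits that each left out 1 library. Chac1, Gclm and Gclc lie above 1, Gsr and Gss at 0.65 and 0.63, and the intervals of Ggct, Oplah and Chac2 include 0.

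Levels of different genes were compared as CPM per kb of exon. In DMSO the order was Chac1 (20.4 ± 2.7, SD, n = 3), Gss (9.63 ± 0.21), Gsr (9.27 ± 0.44), Gclc (8.17 ± 0.51), Gclm (6.31 ± 0.40), Chac2 (2.89 ± 0.35), Oplah (2.21 ± 0.20), Ggct (0.446 ± 0.14) and Ggt5 (0.306 ± 0.36). The libraries of Gss and Gsr overlapped on this scale, as did those of Ggct and Ggt5; each other neighbouring pair was separate. With erastin the order was Chac1 (95.3 ± 7.5), Gclc (25.3 ± 1.5), Gclm (24.5 ± 2.1), Gss (14.9 ± 0.61), Gsr (14.6 ± 1.1), Chac2 (2.53 ± 1.6), Oplah (2.21 ± 0.33), Ggct (0.645 ± 0.16) and Ggt5 (0.0294 ± 0.037). Both ligase subunits thus stood below Gss and Gsr in DMSO and above them with erastin, and Gclc overlapped Gclm, Gss overlapped Gsr and Chac2 overlapped Oplah. The length matters for Gss: with its longest transcript (3258 bases) in place of all its exonic bases (5915), its level was 17.5 in DMSO and 27.0 with erastin, beside 27.9 for Gclc and 27.6 for Gclm with erastin.

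**Figure D4:**
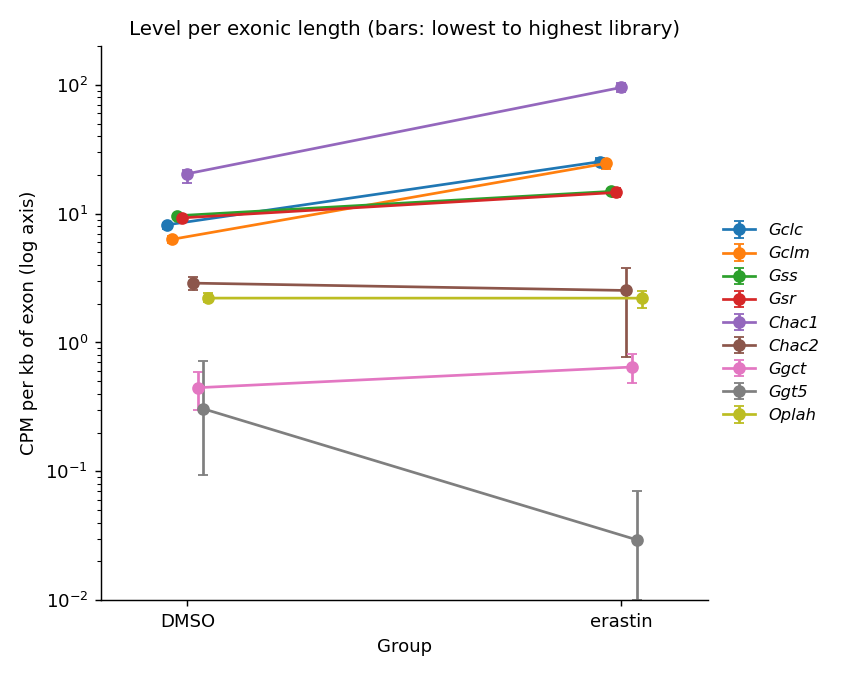
CPM per kb of exon (log axis) of the 9 genes in DMSO and erastin; points are means of 3 libraries and bars run from the lowest to the highest library, the bar of Ggt5 with erastin being cut at the axis since its lowest library is at 0. Gclc and Gclm cross the lines of Gss and Gsr, and Chac1 is the highest in both groups.

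Other genes, of the pathway and of its known regulators, were taken from 6 lists of 39 genes, of which 35 were tested. Of these, 22 were higher, 2 lower and 11 did not pass, with a median log2 fold change of 0.50. The 22 include all 5 other NRF2 targets and all 6 ATF4 and CHOP genes. Those are stress-response genes rather than glutathione pathway genes, and they raise the pooled count and median. Among all genes tested 21.6% were higher and 21.5% lower. The lists were drawn up with results of these libraries known, so their counts are not those of an unselected set. Cysteine supply had 3 of 4 genes higher: Slc7a11, the transport subunit of the antiporter (14.4 ± 2.5 to 191 ± 43 CPM, SD, n = 3), Cth, which makes cysteine from cystathionine (17.7 ± 3.38 to 150 ± 3.45 CPM), and Slc3a2, the partner chain of the antiporter (183 ± 14 to 351 ± 22 CPM). Cbs, the enzyme before Cth, stood at 1.95 ± 0.96 and 1.90 ± 0.45 CPM and did not pass (edgeR adjusted p = 0.961). The log2 fold changes of Slc7a11 and Cth, 3.75 and 3.09, were above that of every gene of glutathione synthesis.

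Glutathione transport genes had 4 of 5 higher, against 21.6% of all genes tested, the other being Abcc5 at a log2 fold change of 0.13. Of the 4, Slc25a40 passed (edgeR adjusted p = 0.0351) although its groups overlapped. Its erastin replicate 2, at 7.84 CPM, lay below DMSO replicates 1 and 2, at 8.46 and 7.87 CPM. The export pump genes Abcc4 (16.4 ± 3.5 to 52.3 ± 3.1 CPM, SD, n = 3; log2 fold change 1.68, edgeR adjusted p = 2.79e-07) and Abcc1 (138 ± 11 to 196 ± 12 CPM, log2 fold change 0.50) rose, as did Slc25a39, a carrier for glutathione into mitochondria (182 ± 9.3 to 243 ± 6.1 CPM, log2 fold change 0.42). Of 7 genes for glutaredoxins, glyoxalases and a related hydrolase, 2 were higher, 1 lower and 4 did not pass, a share passing much like the 43.1% of all genes. Esd, whose product hydrolyses S-formylglutathione, rose from 282 ± 11 to 573 ± 21 CPM (edgeR adjusted p = 3.09e-08). The glyoxalase genes, which work in sequence on the glutathione adduct of methylglyoxal, went opposite ways, with log2 fold changes of -0.32 for Glo1 and 0.43 for Hagh (edgeR adjusted p = 0.0331 and 0.033).

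Among the other genes of the gamma-glutamyl cycle and of peptide breakdown, 8 of 12 were tested. Of these, 2 were higher, 1 lower and 5 did not pass, with a median of -0.061, where 43.1% of all genes passed in either direction. Anpep, an aminopeptidase that can cleave cysteinylglycine outside the cell, was higher with erastin, at 54.4 ± 14 CPM against 26.5 ± 3.3 (n = 3, SD; adjusted p = 0.000123 in edgeR), and Cndp2, a cytosolic dipeptidase for cysteinylglycine, from 71.6 ± 2.7 to 90.6 ± 4.7 CPM (edgeR adjusted p = 0.00446). Ggact, which acts on gamma-glutamylamines, fell from 12.9 ± 0.96 to 5.71 ± 1.3 CPM (edgeR adjusted p = 0.000527). Ggt1 and Ggt6, the other gamma-glutamyltransferases besides Ggt7, had means of at most 0.0999 CPM in either group and were not tested, and Ggt7, at 12.0 ± 1.7 and 9.56 ± 1.6 CPM, did not pass (edgeR adjusted p = 0.2).

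**Figure D5:**
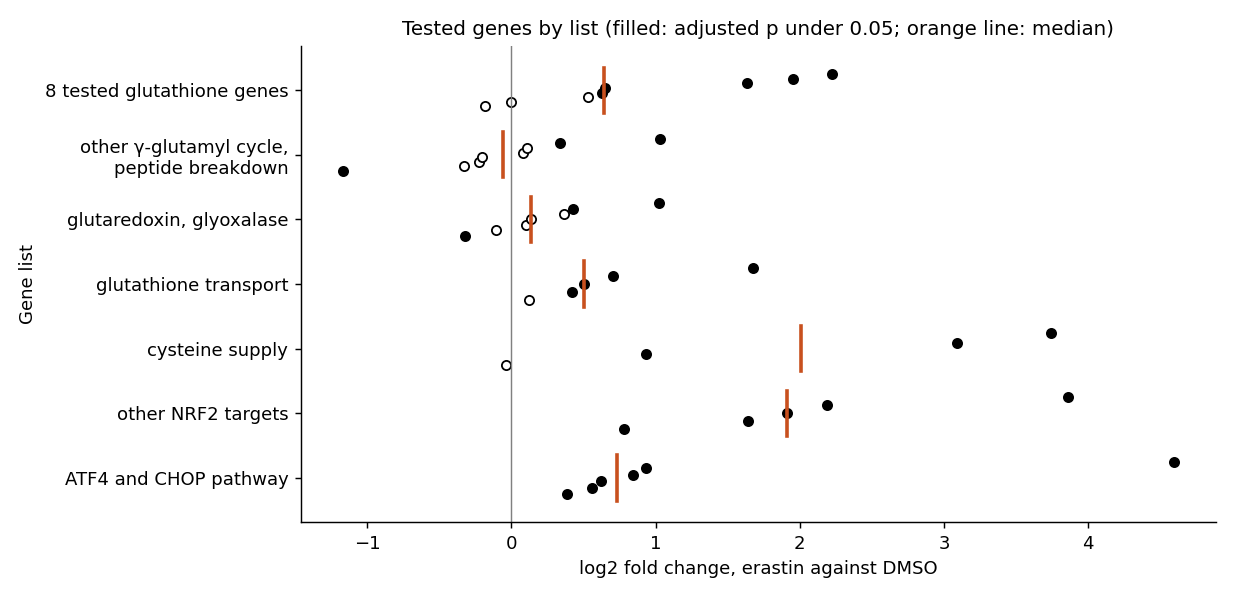
Log2 fold change of erastin against DMSO for each tested gene, by list; filled points have an adjusted p-value under 0.05 and orange lines are list medians. The 8 glutathione genes have a median of 0.64, and the medians run from -0.061 for the other gamma-glutamyl cycle and peptide breakdown genes to 2.01 for cysteine supply.

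Every gene listed for the known regulators passed as higher, where 21.6% of all genes tested did. All 5 other NRF2 targets passed as higher, with a median log2 fold change of 1.91; Hmox1, heme oxygenase, had 3.86, Txnrd1, thioredoxin reductase, 1.91 and Srxn1, sulfiredoxin, 1.64. All 6 genes of the ATF4 and CHOP pathway passed as higher, with a median of 0.73. Atf3, a related transcription factor, had 4.59, Atf4 itself 0.94, Asns, asparagine synthetase, 0.84 and Ddit3, which encodes CHOP, 0.38, beside 2.22 for Chac1. These lists were drawn up with results of these libraries known, and no test compared them with other genes.

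The genes with a course most like that of Chac1 over the 6 libraries were sought among 11253 other tested genes whose counts averaged 50 or more, by the Euclidean distance between log2 CPM profiles centred on the DMSO mean. They were Pvr, a cell adhesion receptor (distance 0.282, 59.7 ± 5.3 to 303 ± 46 CPM, SD, n = 3), Sqstm1, an autophagy receptor (0.335, 558 ± 23 to 2390 ± 144 CPM), and Vegfa, a growth factor for blood vessels (0.42, 90.0 ± 5.4 to 375 ± 45 CPM). Those most like Gclm were Slc2a1, a glucose transporter (0.235, 108 ± 13 to 404 ± 67 CPM), Dmxl2 (0.235, 8.30 ± 0.74 to 31.5 ± 2.0 CPM) and Txnrd1 (0.247, 231 ± 11 to 867 ± 121 CPM). With 2 groups of 3 libraries, this distance is small for any gene with a like size of change and a small spread.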

How the data were processed

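Total RNA depleted of ribosomal RNA was sequenced on an Ion Proton instrument in 6 libraries of mouse fibroblasts, per the labels. The deposited table holds raw counts for 43346 genes. The submitters' processing notes name HTSeq 0.9.1, SAMtools and the mm10 build; the aligner, annotation release and strand setting are not given in the sources used here. Versions were removed from the Ensembl identifiers, which were then matched to GENCODE M21 (GRCm38); 42462 (98%) had a symbol, all 9 genes among them. Groups came from the sample titles, columns from the sample numbers in the descriptions, and 0 columns of values were unused.

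In edgeR 4.0.16 (R 4.3.3), filterByExpr kept 14000 genes (minimum count 10 in 3 libraries, total 15). TMM (trimmed mean of M-values) factors scaled the libraries. The quasi-likelihood test compared the erastin with the DMSO libraries, with Benjamini-Hochberg adjustment over all 14000 genes and a threshold of 0.05. Intervals of log2 fold changes are 95% intervals from the standard error (SE) and the test's degrees of freedom. Ratios of 2 genes within a library were compared by two-sided exact permutation tests (pseudocount 0.5) in SciPy 1.17.1. The script was tested on simulated data.

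Named genes were the 9 genes; at most 3 of each pathway list, by p, and others where a sentence turns on them; the 3 genes most like each of the 2 genes with the largest change; and neighbours within 50 kb. The genes and lists were chosen with earlier results of these data known. Alternatives were RLE, upper-quartile and total-count scaling, no filter or 1 CPM in 3 libraries, DESeq2 1.42.0, a replicate block, an offset for GC content and length (mgcv 1.9.3), each library left out, a pseudocount of 2, and the longest transcript's length. Total counts were 13333911 to 20509970 per library; 3 counts, taken as the floor, were worth 0.14 to 0.234 CPM. Libraries were amplified by PCR without described molecular identifiers, so intervals on counts cover counting error only. The summed level of the neural markers is not reported here.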

Additional observations from a re-analysis of the deposited data

How the results depend on the processing

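The count of the 9 genes passing as higher was 5 under each of the 15 alternatives, and the log2 fold changes of Chac1 (2.12 to 2.43), Gclm (1.80 to 2.03), Gclc (1.58 to 1.70), Gsr (0.594 to 0.715) and Gss (0.574 to 0.692) kept their direction and passed in all of them; the largest adjusted p-value was 0.00226, for Gsr without erastin replicate 2. The count lower, 0 as reported, was 1 without the filter and 0 to 1 when 1 library was left out. That gene was Ggt5, which was not tested without DMSO replicates 1 or 3. It did not pass without erastin replicates 2 or 3 (edgeR adjusted p = 0.0624 and 0.0606). With 1 library left out Ggt5 met the filter only through DMSO libraries, where it is higher, so a call there is no support for a fall. Without the filter 26801 genes were tested. Oplah, at -0.005, was 0.0574 with total-count scaling, 0.0125 without the filter, 0.152 with an offset for GC content and length, and 0.145 when that offset was joined to the replicate block; leaving out 1 library moved it between -0.101 and 0.108, and it passed in no alternative. Chac2 ran from -0.592 to 0.239 when 1 library was left out. The difference in the ratio of Gsr to Gss, 0.025, ran from -0.023 to 0.078 when 1 library was left out, those of Gclm to Gclc from 0.249 to 0.373, of Gss to Gclc from -1.02 to -0.969 and of Chac1 to Chac2 from 1.99 to 3.07. With the longest transcript as length, DMSO levels per kb were 8.99 for Gclc, 7.10 for Gclm, 17.5 for Gss, 0.872 for Ggct and 3.16 for Oplah, which put Oplah above Chac2. The causes of these moves were not tested, beyond the change of length itself. Equally numbered libraries did not deviate together (correlations 0.028, -6.00e-05 and -0.0056), so the numbers were not taken as pairs. With the replicate block 5882 genes passed against 6028. Among them were the same count of 5 of the 9 genes, and 24 of the genes on the pathway and regulator lists, as before. Over all alternatives 4802 to 6104 genes and 20 to 24 genes of those lists passed. Chac2, Ggct and Ggt5 had at most 135 reads in any library, and replicates of one group differed by more than counting error for each of them.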

Other observations

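The nearest tested protein-coding genes within 50 kb that do not overlap one of the 9 genes numbered 13. Acss2 and Exosc4, which overlap Gss and Oplah, are left out. Of the 13 neighbours, 3 passed as higher, 5 passed as lower and 5 did not pass. Their middle log2 fold change (median) was -0.21, against -0.0014 for the 14000 genes tested. Of those 14000, 43.1% passed in either direction: 21.6% rose and 21.5% fell. No test compared the neighbours with the other genes. Beside Gclm, Dnttip2, 3656 bases away, was higher with erastin, at 69.3 ± 2.7 CPM against 48.0 ± 6.0 (n = 3, SD; adjusted p = 0.000652 in edgeR). Beside Chac1, Ino80 stood at 41.0 ± 9.1 and 47.9 ± 6.5 CPM and did not pass (edgeR adjusted p = 0.253). Both neighbours of Ggt5 were lower, Lrrc75b from 1.48 ± 0.65 to 0.435 ± 0.028 CPM and Susd2 from 6.37 ± 1.7 to 3.56 ± 0.29 CPM (edgeR adjusted p = 0.0348 and 0.0342). Lrrc75b had few counts (log2 fold change -1.73, SE 0.62), and its erastin level lies under the filter on low counts. It was tested through the DMSO group, where it is higher, so its call is no support for a fall. Ggt5 itself was not tested. Ggct lies between Nod1, which fell from 17.3 ± 2.0 to 9.72 ± 0.33 CPM, and the glycyl-tRNA synthetase gene Gars, which rose from 377 ± 26 to 738 ± 12 CPM (edgeR adjusted p = 0.000996 and 7.11e-08).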
